A study of Danio rerio with 4 samples.

Results

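The genes described here encode 10 digestive enzymes of the exocrine pancreas: the trypsinogen gene try, the chymotrypsinogen genes ctrb1 and ctrl, the elastase genes ela2, ela2l and ela3l, the carboxypeptidase genes cpa4 and cpa5, the amylase gene amy2a and the bile salt-stimulated lipase gene cel.1. They were taken by symbol from a table of 11021 zebrafish genes, and all 10 were found. The values come from livers of larvae at 5 days post fertilisation that carry Tg(fabp10:has.UHRF1-GFP), a transgene that expresses human UHRF1 fused to GFP, in the line labelled high. The fabp10 promoter is active in hepatocytes, and the labels name neither a line number for the transgene nor the number of larvae behind a library. The 2 libraries of this group are called A and B. The study also has 2 control libraries from livers with Tg(fabp10:nls-mCherry), nuclear mCherry from the same promoter, which were not analysed here. No value below is therefore a change against the control. The differences described are those between 2 replicates of 1 group.

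Acinar cells make up most of the pancreas and secrete a mixture of enzymes that digest protein, starch and lipid in the gut. Proteases leave the cell as inactive zymogens, and trypsin, once active, activates the other zymogens. In the mouse and in zebrafish the transcription factor Ptf1a is needed for acinar cells to form, and acinar cells express many enzyme genes together under its control. Hepatocytes are not known as a main source of these enzymes. In the zebrafish larva the pancreas lies beside the liver and the gut.

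Quantile normalisation by the authors gave both libraries nearly the same set of values: 76.5% of the values at the same rank agreed within 1% between A and B, with most of the others among low values. A value thus states the position of a gene within its library, and sequencing depth is unknown. The median over all genes was 4.36 in A and 4.41 in B. Differences are given as log2(value + 1), A minus B, over the 8386 genes whose mean reached 1, and counts of genes past a fold refer to this scale, while the fold printed for a gene or a sum is the plain ratio of its values. With 1 library on each side no test was possible. Nothing in the labels tells if the libraries are from separate clutches, so an SD (n = 2 throughout) measures the spread between these libraries, which may be technical.

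The total of the 10 genes was 9.01-fold higher in A than in B, while 90.3% of their make-up, by share of the total, was common to both libraries. Library A had a summed value of 10045 and library B one of 1115 (5580 ± 6315, mean and SD). These sums are 1.17% (A) and 0.130% (B) of the library total over all genes. Of the 10 genes, 9 were higher in A, each by at least 2-fold, against 7.07% of all genes tested. Among these, 8 were at least 8-fold higher in A, against 0.346%. Both counts are descriptive, since the 10 genes were chosen with earlier results of these data known. The exception was ela2l, which was higher in B; 6.83% of all genes tested were at least 2-fold higher in B. All 10 genes had values above 1 in both libraries, so none passed the filter through 1 library alone. The median difference of the 10 genes was 3.38, compared with -0.02 over all genes tested. In a bulk sample, fewer cells of a type and less RNA per cell cannot be told apart.

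**Figure D1:**
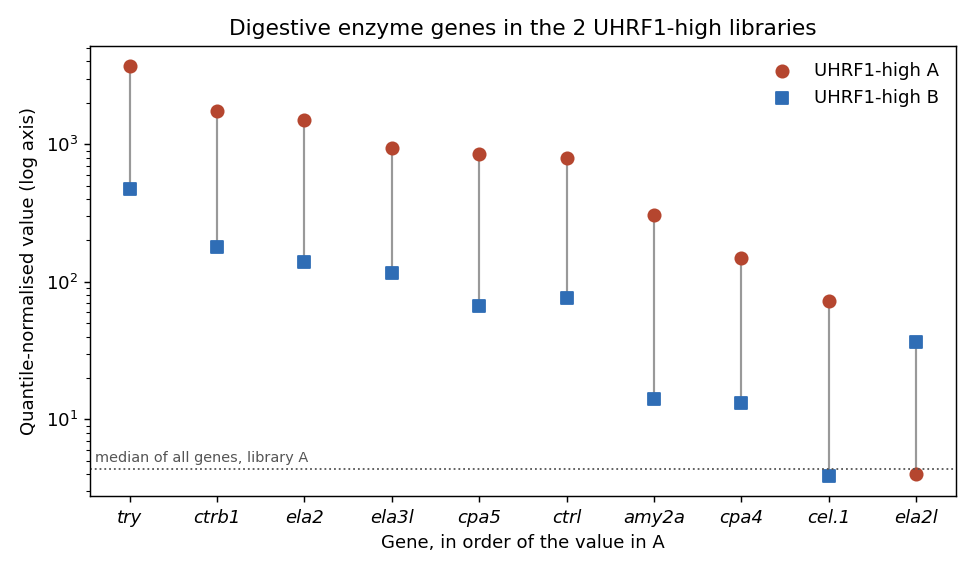
Quantile-normalised value (log axis) of each of the 10 genes in UHRF1-high library A (circles) and library B (squares), in order of the value in A. The dotted line is the median over all genes in A, 4.36. In 9 genes the circle lies above the square, and in ela2l the square, at 36.4, lies above the circle, at 4.02.

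In both libraries the 4 highest of the 10 values, not corrected for gene length here, were those of endopeptidase genes. Endopeptidases cut proteins within the chain. The gene try (chromosome 16, 27320035 to 27324586, Zv9) reached 3681 in A against 469 in B, 7.84-fold higher in A. It ranked 19th of all genes in A and 247th in B. The chymotrypsinogen gene ctrb1 (chromosome 7, 36530670 to 36533276) had 1741 and 180, a 9.67-fold difference, and the chymotrypsin-like gene ctrl (chromosome 15, 36519250 to 36527571) had 793 and 76.5, a 10.4-fold difference. Both chymotrypsin genes lay above try in the size of the difference. Among the elastase genes, ela2 (chromosome 8, 21914276 to 21919769) had 1501 and 138, which is 10.9-fold. The gene ela3l (chromosome 5, 27756122 to 27763361) had 942 and 116, which is 8.1-fold and close to try.

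The exopeptidase genes cpa5 and cpa4 encode carboxypeptidases of the A type, which remove residues from the carboxyl end. The value of cpa5 (chromosome 25, 18947190 to 18958000) was 855 in A and 66.9 in B, a 12.8-fold difference. That of cpa4 (chromosome 25, 16939204 to 16946502) was 149 and 13.2, an 11.3-fold difference. Among the 10 genes, amy2a and cel.1, of starch and lipid digestion, differed most. Other amylase and lipase genes, given below, differed less than these. Amylase, which cleaves starch, is encoded by amy2a (chromosome 2, 15433355 to 15447554), with 307 in A and 14.1 in B, a 21.7-fold difference. The lipase gene cel.1 (chromosome 21, 9825236 to 9835372), whose product hydrolyses cholesteryl and other lipid esters, had 72.5 and 3.89, an 18.6-fold difference. In B cel.1 lay near the median of all genes and ranked 5783rd, against 954th in A. Without ela2l, the differences of the 9 genes ran from 2.97 to 4.35 on the log2 scale, with an SD of 0.44. With ela2l the SD over the 10 genes was 2.06, and over all genes tested it was 0.75, so the comparison with all genes turns on ela2l.

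The share of each gene in the summed value of the 10 describes the make-up. No source says whether the deposited values take account of transcript length, so the order of genes within a library can include their length. A length factor applied to the deposited values would cancel when the same gene, or the same ratio of genes, is compared between A and B. A length effect from before the quantile normalisation need not cancel exactly. The gene try held 36.6% of the summed value in A and 42.1% in B, or 39.4% ± 3.86 (mean and SD). The share of ctrb1 was 17.3% and 16.1%, or 16.7% ± 0.837. The share of ela2 was 14.9% and 12.4%, and that of ela3l 9.38% and 10.4%. These 4 genes stood in the same order in both libraries. The next genes, cpa5 and ctrl, changed places: cpa5 had 8.51% in A and 6.0% in B, and ctrl had 7.89% and 6.86%. Their mean shares of 7.25% ± 1.78 and 7.38% ± 0.729 did not differ beyond this spread.

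Among the genes with smaller shares, amy2a, cel.1 and ela2l varied more in relation to their share than all genes above. The share of cpa4 differed 1.26-fold, less than that of cpa5 (1.42-fold) but more than those of the other genes above. The share of amy2a was 3.06% in A and 1.27% in B, a 2.41-fold difference, and that of cel.1 was 0.722% and 0.349%, a 2.07-fold difference. The share of cpa4 was 1.49% and 1.18%. For ela2l the share was 0.0400% in A and 3.26% in B. The mean shares of amy2a (2.16% ± 1.26), ela2l (1.65% ± 2.28) and cpa4 (1.33% ± 0.215) overlapped within their spread. Within each library amy2a stood above cpa4, though narrowly in B. The gene ela2l lay below both in A and above both in B, so it has no fixed place among these 3. Summed over the genes, the smaller of the shares in A and B made up 90.3%, meaning that 90.3% of the make-up was common to both libraries. Without ela2l this overlap was 91.7%. Genes with high shares dominate the overlap, and none was computed for genes outside the enzyme lists.

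**Figure D2:**
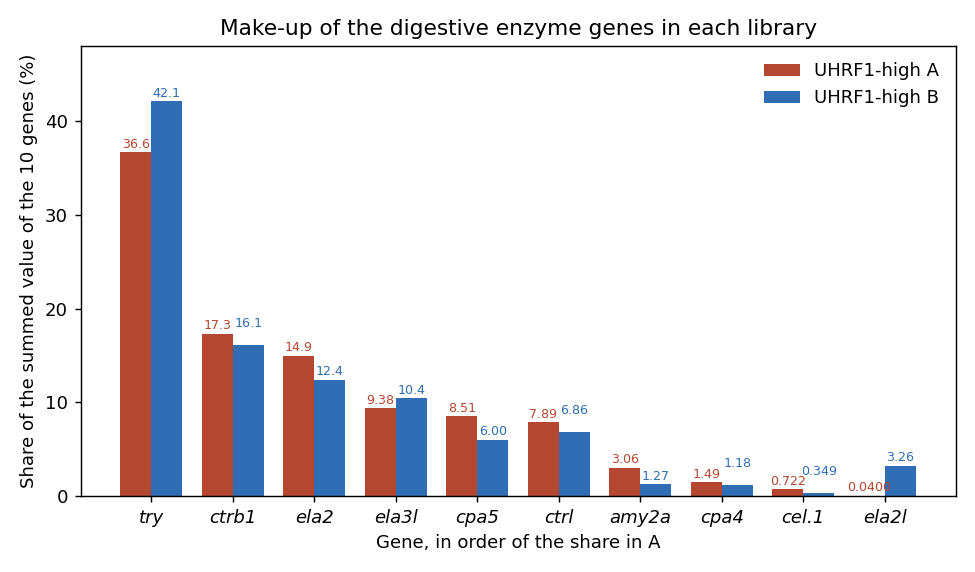
Share of each gene in the summed value of the 10 genes, in percent, in library A (left bar) and library B (right bar), with the value printed above each bar. The shares of try, 36.6% and 42.1%, are the highest in both libraries, and ela2l has 0.0400% in A and 3.26% in B.

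Ratios between pairs of genes show which parts of the mixture were kept. Of the 36 pairs without ela2l, 21 had ratios that agreed within 1.5-fold between A and B and 29 within 2-fold. Since ela2l is the only gene with the opposite difference, leaving it out raises the agreement by construction. The value of try was 3.91 times that of ela3l in A and 4.04 times in B. The ratio of ctrb1 to ctrl was 2.2 and 2.35, that of ela2 to cpa4 10.1 and 10.5, and that of amy2a to cel.1 4.23 and 3.63. The 7 pairs outside 2-fold all joined a protease gene with amy2a or cel.1. The widest was try to amy2a, with ratios of 12.0 in A and 33.2 in B. The 9 pairs with ela2l shifted by between 71.0-fold and 197-fold, so 29 of all 45 pairs (64.4%) agreed within 2-fold. The share over pairs of other genes was not computed, so these counts do not set the enzyme genes apart from other genes. Over the 9 genes without ela2l, the log2(value + 1) values of A and B had a Pearson correlation of 0.987. This is a description over 9 genes that share the libraries and the normalisation. With ela2l (10 genes) the correlation was 0.676, and over the libraries as a whole it was 0.955.

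The gene ela2l lies beside ela2 on chromosome 8 (21907060 to 21910480), 3795 bases away. The RefSeq gene table lists ctrc and elastaseB among its older symbols. The value of ela2 was 374 times that of ela2l in A and 3.80 times in B. The sum of both genes was 1505 in A and 175 in B, an 8.62-fold difference. Most of this sum is ela2 in both libraries, so the sum says little about ela2l. Of this sum ela2l held 0.267% in A and 20.8% in B. How reads were assigned between these elastase genes is not given in the sources used here, so their separate values are uncertain. On its other side, 67 bases away, lies alas2, which encodes the erythroid enzyme of heme synthesis. It had 8.67 in A and 4.77 in B, and so was not higher in B as ela2l was.

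Other enzyme genes of the exocrine pancreas were also higher in A. A wider list of 61 symbols of pancreatic enzymes and granule proteins gave 22 further genes in the table. Of these, 14 had values of at least 1 in both libraries, and all 14 were higher in A, 13 by at least 2-fold. Over all 7716 genes with values of at least 1 in both libraries, 48.6% were higher in A and 6.17% by at least 2-fold. Since the list was chosen with earlier results of these data known, its counts are no independent support. In the other 8 of the 22 genes, of which 6 were higher in A, at least 1 value lay below 1. The elastase gene zgc:92041 (cela1.6) had 2993 in A and 395 in B, the serine protease gene zgc:66382 (prss59.1) 1345 and 209, and the carboxypeptidase B gene cpb1 179 and 21.5. The gene pdia2, whose product is a protein disulfide isomerase known from the mammalian pancreas, had 24.4 and 1.79. The gastric-type lipase gene lipf was the 1 of the 14 under 2-fold, with 79.8 and 53.4. The 22 genes together summed to 7019 in A and 949 in B, a 7.40-fold difference. By share of this sum, 91.1% of their make-up was common to both libraries, a measure that genes with high values dominate. Pair by pair the make-up was kept less closely. Of 190 pair ratios among those with values above 0 in both libraries, 71 (37.4%) agreed within 2-fold between A and B. Some of these genes had values below 1, unlike the 10 genes, so their pair counts are not directly comparable.

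Paralogues of amy2a and cel.1 differed less between the libraries than these genes did. The amylase gene zgc:92137 (amy2al2) had 141 in A and 20.8 in B, a 6.80-fold difference, against 21.7-fold for amy2a. The lipase gene cell (cel.2), which lies 7294 bases from cel.1, had 21.1 and 3.24, a 6.51-fold difference, against 18.6-fold for cel.1. Summed by family, 3 amylase genes were 12.8-fold higher in A, and 2 bile salt-stimulated lipase genes, cel.1 and cell, 13.1-fold. The 3 carboxypeptidase A genes gave 12.4-fold, the 4 chymotrypsin genes 9.77-fold, the 8 elastase genes 7.96-fold and the 2 trypsin-type genes 7.41-fold. All 15 ratios between these 6 family sums agreed within 2-fold between A and B, and 93.4% of the make-up by family was common to both. The families were drawn up after the single values had been seen, and they hold 22 of the 32 genes of both lists. The gastric-type lipase gene lipf, with 79.8 in A and 53.4 in B, is in none of them. The lipase ratios thus hold for the bile salt-stimulated type only. How reads of closely related copies were assigned is not known, so the values of single copies are uncertain.

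**Figure D3:**
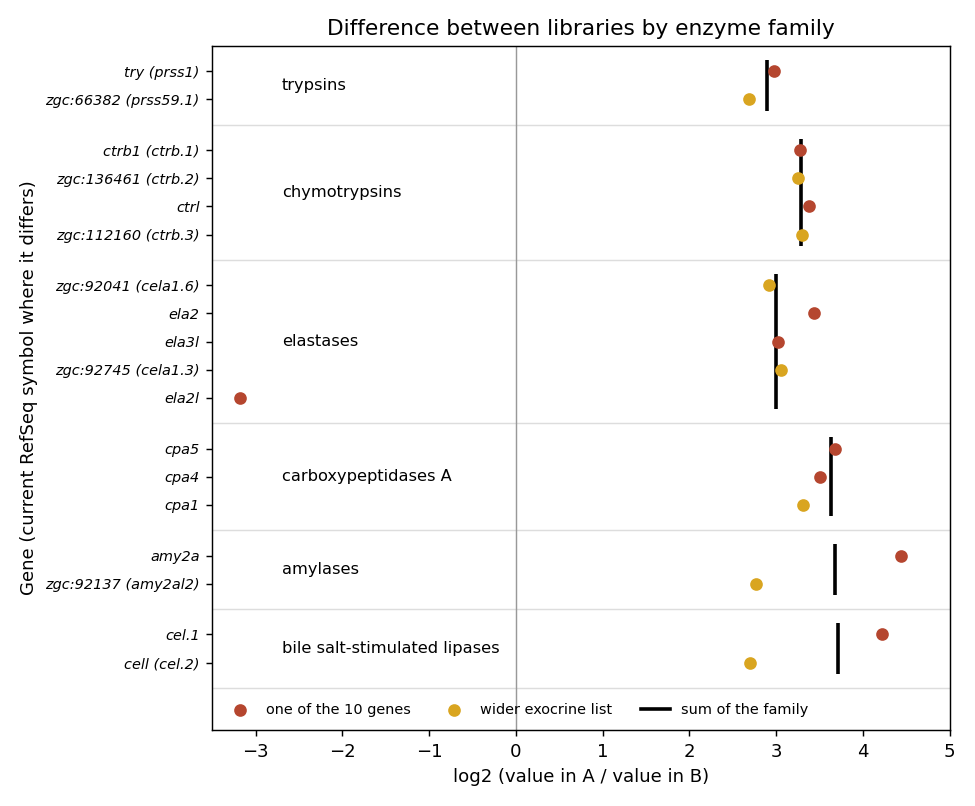
Log2 ratio of the value in A to that in B for genes of 6 enzyme families with values of at least 1 in both libraries; red dots are genes of the 10, yellow dots genes of the wider list, and black bars the ratio of the family sums, which include all genes of a family. The family sums lie between 7.41-fold and 13.1-fold, amy2a (21.7-fold) and cel.1 (18.6-fold) lie to the right of their paralogues, and ela2l lies on the other side of 0.

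Several of these genes sit in clusters with other enzyme genes. On chromosome 7, zgc:112160 (ctrb.3), zgc:136461 (ctrb.2) and ctrb1 follow each other, with differences of 9.80-fold, 9.54-fold and 9.67-fold. The proton pump subunit gene atp6v0d1, 7796 bases beyond ctrb1, had 36.1 in A and 43.7 in B. On chromosome 25, cpa1 lies 5892 bases from cpa5 and was 9.93-fold higher in A (51.8 and 5.21). The gene tes, 4333 bases on the other side of cpa5, had 6.30 and 5.61.

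The acinar transcription factor genes ptf1a and bhlha15 were near the lowest values. The value of ptf1a in A was 0.183. For bhlha15, a factor of secretory cells, it was 0.0203, the lowest value that occurs in A. Library B lists both genes at 0. Of 12 measured genes on a list of acinar regulators, 7 had values of at least 1 in both libraries, and none of these was at least 2-fold higher in A, against 6.17% of all such genes, a share at which 0 of 7 is no result about the regulators. Of those 7, nr5a2, a nuclear receptor gene of liver and pancreas, had 8.98 and 6.65. The secretory regulator gene xbp1 had 389 and 441, and sox9b, a gene of duct cells, 8.59 and 24.0. Genes such as xbp1, nr5a2, prox1a and hnf1ba are also expressed in liver cells.

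Genes of the endocrine pancreas were mostly low. Of 22 measured genes on the endocrine list, 15 had values below 1 in both libraries and 4 in 1 library. The other 3 were all higher in B, as were 3940 of all 7716 genes with values of at least 1 in both libraries. With 3 genes this is no result about the list. The glucokinase gene gck, also a liver gene, had 85.0 in A and 197 in B. The gene pdx1, which encodes a factor of beta cells and of the gut, had 5.57 and 10.5. The glucagon gene gcga had 4.77 and 5.28. The 4 genes with a value below 1 in 1 library are hormone genes, low in B. The insulin gene ins had 46.8 in A and 0.609 in B, the somatostatin gene sst1.1 had 9.09 and 0.304 and the second glucagon gene gcgb had 7.81 and 0.487. The somatostatin gene sst2 had a value of 7.0 in A, and B lists it at 0. Since these 4 passed the filter through A alone, they are given as values only. Intestinal genes differed in both directions. Of 14 with values of at least 1 in both libraries, 4 were higher in A and 10 in B, against 48.6% of all such genes higher in A. Those at least 2-fold higher in A were 3, against 6.17% of all such genes. They were the apolipoprotein genes apoa4 (2588 and 1273) and zgc:194131 (apoa4b.2, 1450 and 505), and mtp (32.5 and 14.7), which acts in lipoprotein assembly. At least 2-fold higher in B were tm4sf4 (365 and 770) and rbp2a (42.5 and 87.8). The enterocyte fatty acid binding protein gene fabp2 had 115 and 151. The 23 measured genes of the list summed to 4641 in A and 2887 in B, 1.61-fold higher in A. Most of this sum came from apoa4 and zgc:194131, so it does not speak for the list. Of the 23 genes, 7 were higher in A and 16 in B.

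Markers of the labelled tissue and of muscle give the setting. All 7 hepatocyte markers were measured, with values from 34.1 to 130650 in A and from 63.8 to 130650 in B. The apolipoprotein genes apoa1b and apoa2 and fabp10a had the same value in both libraries; they hold the first 3 ranks in each, where the normalisation fixes the value. Of the other 4, 3 were higher in A: transferrin (tfa) with 12758 and 2207, alpha-1-antitrypsin (serpina1) with 4796 and 1567, and gc, whose product carries vitamin D in plasma, with 610 and 84.9, a 7.19-fold difference. The ceruloplasmin gene cp was higher in B, with 34.1 and 63.8. Over all 8386 genes tested, 4077 were higher in A and 4281 in B. All 5 skeletal muscle markers were higher in B, and their sum was 212 in A and 2565 in B, a 12.1-fold difference. Each of the 5 was at least 8-fold higher in B, a level that 19 of all genes tested reached, these 5 included. The exocrine marker list had 9 measured genes of 10: the 7 enzyme genes summed to nearly all of its 9100 in A and 989 in B. These 7 are among the 10 genes described here, so their sum restates those values and is no separate marker. The other measured markers, ptf1a and bhlha15, were at or near 0. The part of different amounts of pancreas or muscle tissue in the 2 samples in these differences was not tested.

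The genes closest to the median difference of the 10, among 3723 other genes with a mean of at least 10, were LOC568900, zgc:112160, si:dkey-52k20.7, zgc:136461, msmo1, c6ast4, pdia2, fads2, cyp51 and sc5d. Likeness here is the distance between log2 differences over 2 libraries, and a single difference is all it rests on. Of these 10, 4 are on the wider exocrine list: zgc:112160, zgc:136461, the astacin-type protease gene c6ast4 (398 in A and 41.8 in B) and pdia2. Another 3, msmo1 (423 and 44.2), cyp51 (235 and 26.2) and sc5d (31.1 and 2.75), encode enzymes of cholesterol synthesis, and fads2 (46.7 and 4.24) encodes a fatty acid desaturase. Over all 8386 genes tested, 30 (0.358%) had a difference between the lowest and the highest of the 9 enzyme genes. The 9 genes are among them by construction, since they set the range. The rest were 8 of the wider exocrine list, sst2 of the endocrine list and 12 others. Some of the rest, sst2 included, had a value below 1 in B and passed the filter through A alone.

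**Figure D4:**
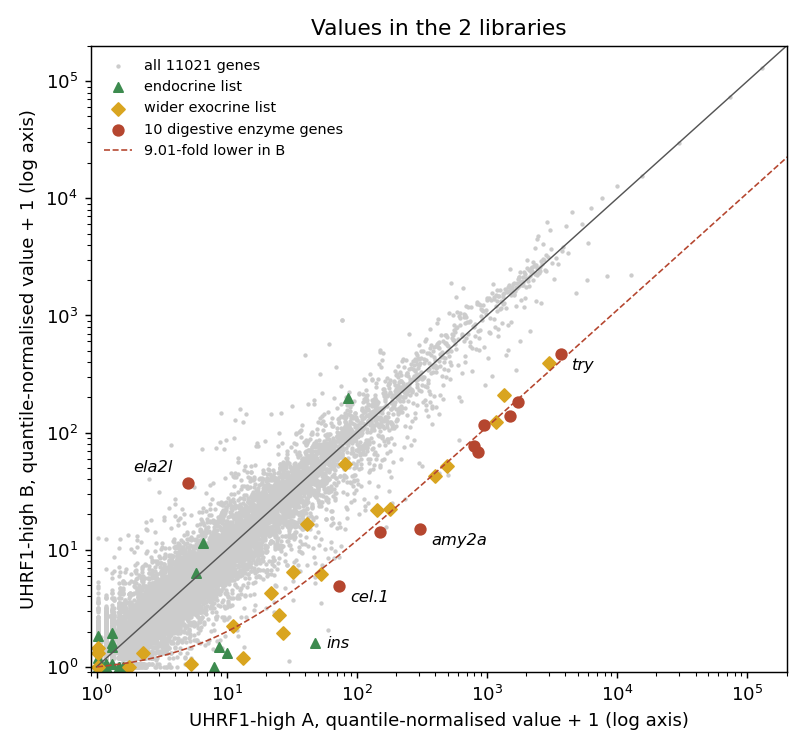
Value + 1 of every gene in library A (horizontal, log axis) and library B (vertical, log axis); red circles are the 10 enzyme genes, yellow diamonds the wider exocrine list and green triangles the endocrine list. The solid line marks equal values and the dashed curve a 9.01-fold lower value in B, near which the protease genes other than ela2l lie from try, at 3681 and 469, down to cpa4, at 149 and 13.2.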

How the data were processed

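Polyadenylated RNA of larval livers was sequenced, per the labels' protocols; the series text speaks of small RNA. The signal values in the deposited table had been quantile-normalised by the authors, which its name records. Zv9 (danRer7) and CASAVA 1.7 are named per the submitters' processing notes. The sources used here give neither the counting nor the annotation, nor the unit before normalisation. Per the file headers, the table has value columns for UHRF1-high A and B only; 0 further per-sample columns were left unused. The planned limma comparison with the controls was not fitted.

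Gene symbols were matched through the RefSeq gene table (GRCz12tu), for names only: 8 of the 10 symbols are current, and try and ctrb1 are older symbols of prss1 and ctrb.1. Coordinates are the table's, counted from 1. Shares, pair ratios and log2(value + 1) differences were computed in Python 3.11.15 with pandas 2.3.3 and numpy 2.4.6, and tested on simulated data. Named genes were the 10 genes, genes of the fixed lists, the 10 closest in difference and, chosen afterwards, neighbours in the genome. The 10 genes and the lists were chosen with earlier results of these data known. Of the wider list, 1 gene is not reported here.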

Additional observations from a re-analysis of the deposited data

How the results depend on the processing

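No setting reversed a difference. The log2 ratio of the summed values, 3.17, was 3.30 without try, 3.22 without ela2l and 3.34 after scaling by ribosomal protein medians. Scaling by a centre of the whole library could not test it, since quantile normalisation had already aligned the libraries. Leaving out a single gene could not reverse it either, because 9 of the 10 genes were higher in A. The median difference, 3.38, was 3.07 with a pseudocount of 10 and 3.41 with 0.1, and 9 genes were at least 2-fold higher in A with both. The overlap of the make-up, 90.3%, was between 90.1% and 93.4%. Its last 2 settings, ela2 and ela2l summed and genes summed by family, were chosen after seeing the data. The 90.1% is that of the 10 genes with the wider exocrine list, and genes with high values dominate it. Of the 435 pair ratios in that set, 194 (44.6%) agreed within 2-fold. Leaving out ela2l, the only gene of the 10 higher in B, reduced the SD of the differences from 2.06 to 0.44 by construction. Leaving out a library leaves the sum of the other one, 1115 or 10045. Of 56 recomputed shares, 30 moved by more than the SD between A and B, because other genes stood in the denominator. Over all genes tested, 593 genes were at least 2-fold higher in A and 573 in B. These were 889 and 854 with a pseudocount of 0.1, and 188 and 134 with a pseudocount of 10. Without a filter they were 646 and 629, and 320 and 238 with a mean of at least 10, where fewer genes were tested. Division by coding length was not run, since no sequence lengths were at hand. No paired analysis was possible because the 2 columns analysed belong to 1 group. Depth is unknown, so no counting error is given.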
